A study of Mus musculus with 4 samples.

Results

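Kinesins are the motor proteins that walk along microtubules or shorten them, and 43 of the 22063 genes in the deposited table carry a kinesin symbol, taken here as every symbol that starts with Kif or Kifc followed by a digit. The cells were ID8, a mouse ovarian cancer cell line, and mRNA was sequenced after an shRNA against USP9X (shUSP9X, labelled as USP9X knockdown) or a control shRNA (shCtrl, labelled WT), with 2 libraries in each group. USP9X is a deubiquitinase, and the study asked what its loss does to ovarian cancer cells. Whether the cells were given TGF-β1, which oxygen level they grew at, which shRNA they carried and whether both shUSP9X libraries carried the same one are not given in the sources used here. All libraries come from 1 cell line, and nothing in the labels says that the libraries of a group came from separate cultures, so p-values measure only the spread between these libraries, which may be technical. The estimated counts summed to 17232006 and 15611363 in shCtrl and to 19978889 and 17021261 in shUSP9X. Levels are given as CPM (a count relative to the library total) after TMM normalization, in the order shCtrl replicate 1 and 2, then shUSP9X replicate 1 and 2. Fold changes are shUSP9X against shCtrl on the log2 scale with their standard error (SE), from edgeR's quasi-likelihood test over 11448 genes with Benjamini-Hochberg adjustment, and a gene was called at an adjusted p under 0.05.

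A kinesin couples ATP hydrolysis in its motor domain to movement along a microtubule, and its tail decides what it carries or crosslinks. Mitotic kinesins build the bipolar spindle, align and separate chromosomes and complete cytokinesis, and many of them are transcribed mainly in the G2 and M phases of the cell cycle. Transport kinesins move organelles, vesicles, mRNA and ciliary cargo, mostly toward the cell periphery, and the opposite direction is served by dynein.

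The targeted gene was measured at 298 and 282 CPM in shCtrl and at 19.7 and 20.5 CPM in shUSP9X. Usp9x was thus low in both libraries labelled shUSP9X and the groups did not overlap. It fell by 3.85 (SE 0.06, adjusted p = 4.7e-26). In a second fit, called corrected below, each library's smooth trend of counts on GC content and transcript length was removed, and there Usp9x fell by 2.09. The corrected fit is used beside the first because fold changes across all genes tested followed both properties, with a Spearman correlation of 0.45 for GC content and -0.33 for length across genes, which are not independent replicates. Whether these trends are technical was not tested, so neither fit is taken as the truer one.

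Most of the 9 epithelial and mesothelial markers were present, with Krt8, Krt18, Krt19, Wt1, Msln and Upk3b each above 160 CPM in every library. Of the 7 tested 2 fell, 3 rose and 2 were not called. These shares, 28.6% lower and 42.9% higher, were near the 33.6% and 33.8% of all genes tested. The largest rise was that of the keratin Krt8, at 314, 324, 602 and 602 CPM, and the falls were those of Wt1, at 358, 373, 257 and 252 CPM, and Msln, at 473, 492, 352 and 346 CPM. Pax8 and Krt7, which mark the fallopian tube and Müllerian epithelium, had at most 9 and 3 counts, and the epithelial cadherin Cdh1 was low at 3.29, 1.64, 2.63 and 3.15 CPM. Of 10 leukocyte markers 4 passed the filter on low counts, all 4 with no count in shCtrl, so that they passed the filter through shUSP9X only, and the summed CPM of the list was 0.058 and 0.063 in shCtrl and 9.11 and 10.1 in shUSP9X. Itgam was the most abundant at 3.64 and 4.45 CPM, while Cd3e and Nkg7 were at 0 in all libraries. Their part in the kinesin results was not tested. In bulk RNA, fewer cells in a phase and less RNA per cell cannot be told apart.

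Of the 43 kinesin genes 32 passed the filter on low counts. The other 11 included 7 with no count in any library, which were Kif1a, Kif2b, Kif12, Kif19a, Kif19b, Kif26a and Kif28, several of them known from neurons, testis or ciliated cells. A count of 0 allows up to 3 counts in a library. Kif27, a kinesin of motile cilia, had 1 count in 1 library. Kif9 had 5, 5, 8 and 8 counts, Kif17 had 5, 4, 9 and 5, and Kif5a, the neuronal conventional kinesin, had 5, 6, 1 and 1.

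Among the 32 tested kinesins 21 fell in shUSP9X and 7 rose, against 33.6% of all genes tested that fell and 33.8% that rose (67.3% in either direction). The CPM of the groups did not overlap for 31 of the 32, against 82.3% of all genes. At the cutoff the study used, an unadjusted p under 0.05 with a fold change above 1.5, 12 kinesins were lower and 0 higher, against 18.7% and 10.8% of all genes tested. The study used this cutoff with DESeq2, whereas here it was set on the edgeR results. Their median log2 fold change was -0.48, against -0.0005 over all genes tested. In the corrected fit 18 kinesins were lower (background 25.6%) and 10 higher (background 38.7%), 17 of the lower and 7 of the higher being so in both fits, and the median was -0.24 against 0.07 for all genes. At the study's cutoff the corrected fit gave 9 lower and 2 higher kinesins, against 11.7% and 12.9% of all genes. The median of the kinesins thus lay closer to that of all genes when corrected. In the uncorrected fit a log2 fold change below -1 was seen in 8 kinesins, against 10.6% of all genes tested, and one below -1.5 in 7, against 5.71%.

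**Figure D1:**
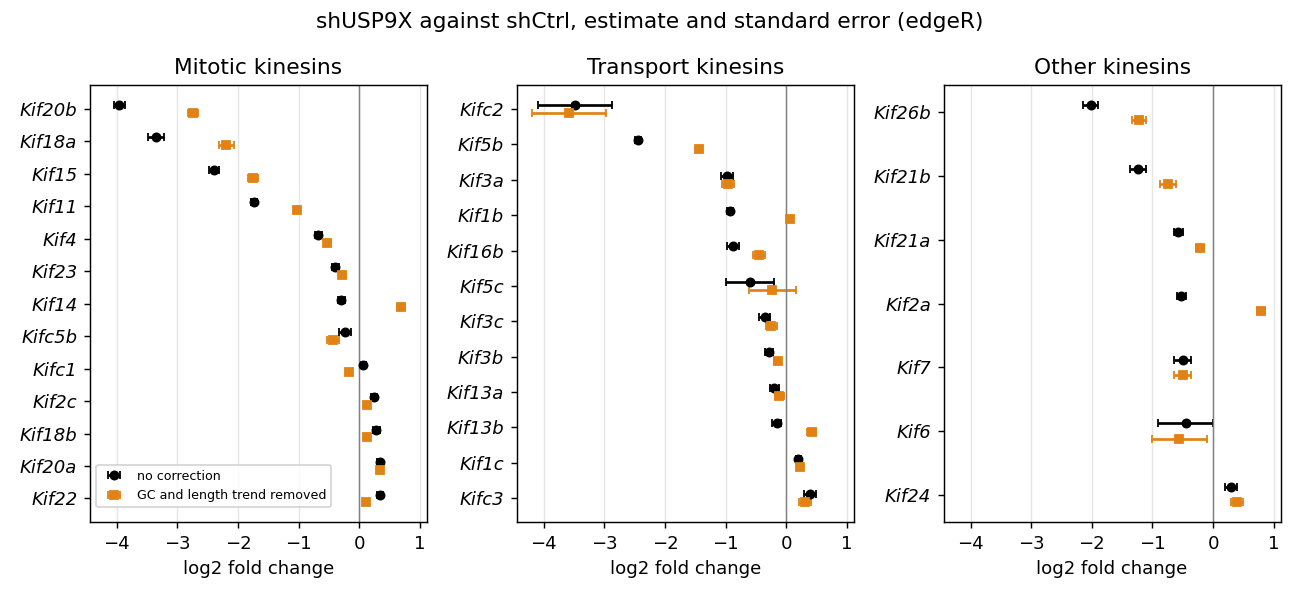
Log2 fold change of the 32 tested kinesins, shUSP9X against shCtrl, by role, with bars of 1 SE; black circles are without correction and orange squares from the corrected fit. Falls reach -3.96 (Kif20b) while no rise exceeds 0.39 without correction (Kifc3), and Kif14, Kif2a, Kif13b, Kif1b and Kifc1 lie on the other side of 0 in the corrected fit.

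Mitotic kinesins numbered 14, of which 13 were tested and Kif2b had no count. Among them 8 fell, 4 rose and Kifc1 was not called, which is 61.5% lower and 30.8% higher against 33.6% and 33.8% of all genes tested, so the share of rises was near that of all genes. The falls were uneven: Kif20b, Kif18a, Kif15 and Kif11 lost between 3.34 and 15.6-fold, whereas no other mitotic kinesin changed by more than 1.6-fold. The median of the 13 was -0.30, and -0.28 in the corrected fit, where the 4 rises and 7 of the 8 falls were called again. In that fit 8 were lower and 5 higher, against 25.6% and 38.7% of all genes tested. The summed CPM of the mitotic kinesins was 1430 and 1394 in shCtrl and 1058 and 1073 in shUSP9X.

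The RefSeq starts of these genes were searched for a sequence word of cell cycle promoters. The cell cycle genes homology region, with the letters TTTGAA or TTTAAA, is a promoter element of many genes expressed in G2 and M, often beside a CCAAT box. RefSeq start windows, from 250 bases before to 50 after each start on GRCm38, were matched for 33 of the 43 kinesins, and both strands of each were searched for these words and for CCAAT. The words TTTGAA or TTTAAA were found in 11 of the 12 windows of tested mitotic kinesins and in 0 of the 9 windows of 8 tested transport kinesins, against 27.6% of all 32851 windows. Among tested mitotic kinesins the 1 window without it was that of Kif18a, and Kif2b, which had no count, lacked it too. Outside the mitotic group TTTGAA stood in a window of Kif26b, of Kif27 and of the transport kinesin Kif1a, of which only Kif26b was tested. No window was matched for the tested transport kinesins Kif5b, Kif13b, Kifc2 and Kifc3, so these were not searched. The word was in 7 of the 8 windows of mitotic kinesins that fell and in 3 of 3 of those that rose. Kif20a, which also rose, had no window. With the word in 11 of the 12 windows, its presence could not have separated the directions. CCAAT was found in 8 of the 12 mitotic windows and 4 of the 9 transport windows, against 37.4% of all windows. The stretches below are shown because TTTGAA stands before the RefSeq start of kinesins that fell (Kif11 and Kif15) and that rose (Kif22 and Kif2c), and because Kif14, whose direction turned in the corrected fit, holds the TTTAAA form. Each is read 5′ to 3′ on the gene's strand, with the word in capitals, as TTCAAA where TTTGAA stands on the other strand. The word begins 19 bases before the start in Kif11 (chr19:37376351-37376380, plus strand), 234 in Kif15 (chr9:122950835-122950864, plus strand, with a second copy 19 bases before the start), 42 in Kif14 (chr1:136467794-136467823, plus strand), 215 in Kif22 (chr7:127042618-127042647, minus strand, with a second copy 17 bases before the start) and 103 in Kif2c (chr4:117178858-117178887, minus strand). In GENCODE M21 the Kif11, Kif15 and Kif22 stretches lie outside the gene and those of Kif14 and Kif2c in an intron.
Kif11: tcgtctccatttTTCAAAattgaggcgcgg
Kif15: gccgactctctcTTTGAAgcgggacaggaa
Kif14: gatctctctcttTTTAAAgtttgtagtaac
Kif22: ccaacctggcaaTTCAAAagcctgaaagtg
Kif2c: ccaggctgctctTTCAAAcctgagtaatgc

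Kinesins that push the spindle poles apart both fell. Kif11 (chr19:37376403-37421859), the tetrameric motor that slides antiparallel microtubules and the target of spindle-poison drugs such as monastrol, was at 257 and 242 CPM in shCtrl and 73.7 and 75.8 CPM in shUSP9X. The libraries of each group lay close together and far from the other group. Kif11 fell by 1.74 (SE 0.05, adjusted p = 5.2e-21), a 3.34-fold loss that was 2.04-fold in the corrected fit. Kif15 (chr9:122951046-123018733), which backs up Kif11 in keeping the spindle bipolar, was at 70.2 and 71.9 CPM in shCtrl and 13.2 and 13.8 CPM in shUSP9X. It fell by 2.40 (SE 0.08, adjusted p = 4.4e-19), and its corrected log2 fold change was -1.75. Kif15 counts were 0.273 and 0.297 of Kif11 counts in shCtrl and 0.179 and 0.182 in shUSP9X, so the backup motor was lower relative to the main one in both knockdown libraries.

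The relatives Kif18a and Kif18b moved in opposite directions. Kif18a (chr2:109280738-109341747), which dampens the oscillation of chromosomes at the metaphase plate, was at 49.0 and 41.2 CPM in shCtrl and 4.96 and 3.80 CPM in shUSP9X, and fell by 3.35 (SE 0.13, adjusted p = 7.3e-18). Its corrected log2 fold change was -2.19. Its relative Kif18b, which works on astral microtubules, was at 86.0 and 84.5 CPM in shCtrl and 103 and 105 CPM in shUSP9X. That gene rose by 0.28 (SE 0.05, adjusted p = 3.4e-05), and by 0.13 in the corrected fit. Kif18a counts went from 0.569 and 0.488 of those of Kif18b in shCtrl to 0.0483 and 0.0363 in shUSP9X.

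Chromokinesins bind chromosome arms and microtubules at once. Kif4, which also shortens the central spindle together with Prc1, was at 127 and 113 CPM in shCtrl and 72.2 and 77.9 CPM in shUSP9X and fell by 0.68 (SE 0.06, adjusted p = 1.2e-10), with a corrected value of -0.53. Of its exonic bases 15.1% overlap Pdzd11 on the opposite strand, and its counts were in part not whole. Kif22, which pushes chromosome arms away from the poles, was at 127 and 128 CPM in shCtrl and at 161 and 161 CPM in shUSP9X. Both knockdown libraries of Kif22 were higher, by 0.33 (SE 0.05, adjusted p = 4.1e-07), and by 0.11 in the corrected fit. Kif2c, which depolymerizes microtubules at centromeres and corrects wrong attachments, was at 89.6 and 90.7 CPM in shCtrl and 106 and 107 CPM in shUSP9X and rose by 0.24 (SE 0.05, adjusted p = 0.00017), and by 0.13 when corrected.

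Kinesins of the midzone and cytokinesis included the strongest uncorrected fall among genes with a Kif or Kifc symbol. Kif20b (chr19:34922361-34975745), which acts in the midbody and abscission, was at 126 and 113 CPM in shCtrl and 7.29 and 8.13 CPM in shUSP9X. Both knockdown libraries lay far below either control library. Kif20b fell by 3.96 (SE 0.09, adjusted p = 2.8e-23), or 15.6-fold, and 6.70-fold in the corrected fit. Its relative Kif20a, which brings the chromosomal passenger complex to the midzone, was at 198 and 199 CPM in shCtrl and 244 and 255 CPM in shUSP9X and rose by 0.33 (SE 0.04, adjusted p = 8.9e-08), and by 0.34 when corrected. Of the Kif20a exonic bases 31.8% overlap Cdc23 on the opposite strand, and its counts were in part not whole. Kif20b counts were 0.633 and 0.571 of Kif20a counts in shCtrl and 0.0298 and 0.0319 in shUSP9X.

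Kif23, the motor of centralspindlin, was at 102 and 103 CPM in shCtrl and 80.2 and 75.7 CPM in shUSP9X and fell by 0.40 (SE 0.05, adjusted p = 3.7e-07), with a corrected value of -0.28. Its partner in that complex, Racgap1, went the other way, at 355, 351, 377 and 379 CPM, a rise of 0.10 (SE 0.04, adjusted p = 0.0192) that was 0.00 in the corrected fit. Kif14, which recruits citron kinase to the midbody, was at 63.7 and 68.0 CPM in shCtrl and 53.8 and 53.2 CPM in shUSP9X. Without correction Kif14 had a log2 fold change of -0.30 (SE 0.06, adjusted p = 0.00019), but in the corrected fit it was 0.68 (adjusted p = 2.6e-10), so its direction depends on that step.

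Minus-end motors that focus spindle poles changed little. Kifc1 was at 110 and 113 CPM in shCtrl and 116 and 117 CPM in shUSP9X, with a log2 fold change of 0.05 (SE 0.05, 95% interval -0.05 to 0.15, adjusted p = 0.331). In the corrected fit it was -0.16 (adjusted p = 0.00254). Kifc5b, a near-identical copy of Kifc1, was at 24.6, 26.4, 22.7 and 20.3 CPM and had a log2 fold change of -0.24 (SE 0.10, adjusted p = 0.04), a call that was lost without shCtrl replicate 2 (-0.18) or shUSP9X replicate 2 (-0.15) and in 8 of 16 alternatives in all, such as DESeq2 (adjusted p = 0.237) and log2(FPKM + 1) (adjusted p = 0.0533). It was -0.44 (adjusted p = 0.00032) in the corrected fit. Reads shared by these copies may be split between them, and both had counts that were not whole, so the values of each are uncertain.

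**Figure D2:**
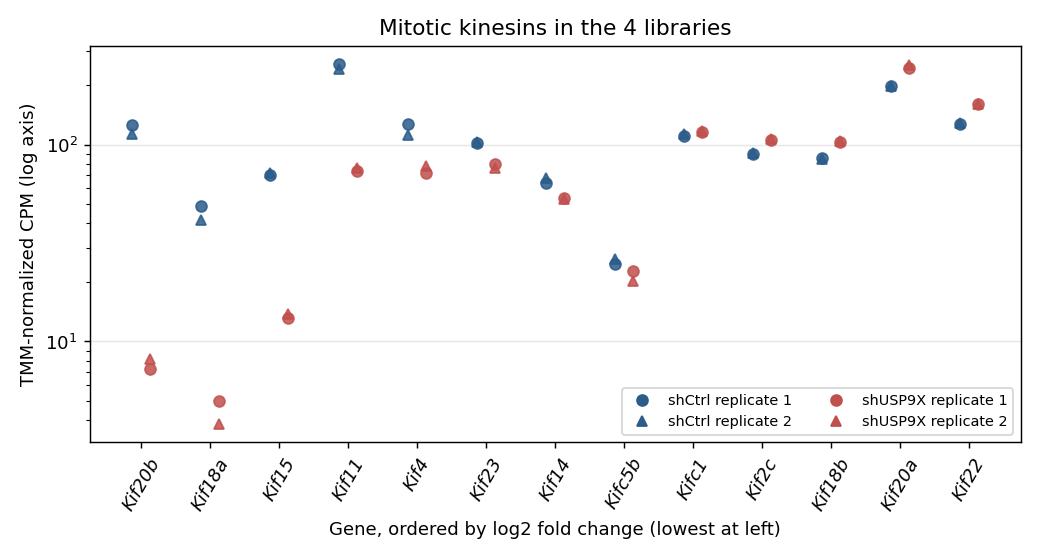
TMM-normalized CPM (log axis) of the 13 tested mitotic kinesins in each library, ordered by log2 fold change; blue is shCtrl, red is shUSP9X, circles are replicate 1 and triangles replicate 2. The 4 genes at the left (Kif20b, Kif18a, Kif15 and Kif11) show wide gaps between the groups, from 257 and 242 to 73.7 and 75.8 CPM at the narrowest (Kif11), and the 4 at the right lie slightly higher in shUSP9X.

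Transport kinesins numbered 15, of which 12 were tested, Kif1a had no count and Kif5a and Kif17 were too low. Among the 12 tested, 8 fell (66.7%), 2 rose (16.7%) and 2 were not called, against 33.6% lower and 33.8% higher over all genes tested, and the median was -0.47. One of the 8 is Kifc2, whose passing of the filter was not independent of its fall. In the corrected fit 6 were lower and 3 higher (25.6% and 38.7% of all genes), with a median of -0.18. The 2 rises were called in both fits, and 6 of the 8 falls. Summed CPM of the transport kinesins was 974 and 962 in shCtrl and 608 and 593 in shUSP9X, and Kif5b made up most of the loss.

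Conventional kinesin is a pair of heavy chains with light chains that bind cargo. Kif5b, the heavy chain used in most tissues, was at 323 and 316 CPM in shCtrl and 55.9 and 61.5 CPM in shUSP9X. It was the most highly counted kinesin in both control libraries and none of its knockdown values came near them. Kif5b fell by 2.45 (SE 0.05, adjusted p = 7.3e-24), or 5.45-fold, and 2.70-fold in the corrected fit. Kif5c, a mainly neuronal heavy chain, was at 2.88, 1.20, 1.37 and 1.36 CPM (log2 fold change -0.59, SE 0.39, adjusted p = 0.186, corrected value -0.23). It was the 1 tested kinesin whose groups overlapped, through shCtrl replicate 2. Without that library its log2 fold change was -1.07 (adjusted p = 0.0277), and without shCtrl replicate 1 it was 0.19 (adjusted p = 0.784), so its direction rests on single control libraries. Of the 4 light chain genes 1 rose, 1 fell and 2 were not called, against 33.8% higher and 33.6% lower over all genes tested. Klc1, at 141, 134, 136 and 146 CPM, had a log2 fold change of 0.03 (95% interval -0.07 to 0.13, adjusted p = 0.574). Klc4 had a log2 fold change of -0.09 (adjusted p = 0.417), while Klc2 rose by 0.31 (adjusted p = 0.00789) and Klc3 fell by 0.57 (adjusted p = 0.00767). When corrected, Klc1 (-0.18) and Klc4 (-0.28) were called lower as well. In that fit 25.6% of all genes tested were lower and 38.7% higher.

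Heterotrimeric kinesin drives transport into cilia. Kif3a was at 39.8 and 39.3 CPM in shCtrl and 22.7 and 17.2 CPM in shUSP9X, and fell by 0.98 (SE 0.10, adjusted p = 4.9e-09), with a corrected value of -0.97. Kif3b, the usual partner of Kif3a, was at 74.2, 75.4, 59.1 and 63.9 CPM and fell by 0.28 (SE 0.06, adjusted p = 0.00019), with a corrected value of -0.14. The heavy chains therefore fell by unequal amounts, and Kif3a counts went from 0.537 and 0.521 of Kif3b counts to 0.384 and 0.270. Kif3c, the alternative partner, fell by 0.36 (SE 0.09, adjusted p = 0.00129), with a corrected value of -0.24. The Kif3c call was lost on log2(FPKM + 1) (-0.27, adjusted p = 0.0642), and 37.8% of its exonic bases overlap 1110002L01Rik on the opposite strand. Kifap3, the non-motor subunit, was at 91.2 and 87.6 CPM in shCtrl and 64.8 and 64.3 CPM in shUSP9X and fell by 0.47 (SE 0.06, adjusted p = 4.9e-08), with a corrected value of -0.13.

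Vesicle kinesins of the Kif1, Kif13 and Kif16 genes divided. Kif1b, which moves mitochondria and vesicle precursors, was at 162 and 156 CPM in shCtrl and 87.6 and 79.8 CPM in shUSP9X and fell by 0.93 (SE 0.05, adjusted p = 1.6e-14). In the corrected fit Kif1b was at 0.06 (adjusted p = 0.307), so this fall did not remain. Its relative Kif1c, a motor of secretory vesicles, was at 196 and 196 CPM in shCtrl and 231 and 218 CPM in shUSP9X and rose by 0.20 (SE 0.04, adjusted p = 0.00022), and by 0.22 when corrected. Kif16b, which carries early endosomes, was at 32.6 and 32.9 CPM in shCtrl and 17.8 and 17.9 CPM in shUSP9X and fell by 0.88 (SE 0.10, adjusted p = 8.7e-09), with a corrected value of -0.45. Kif13a, a motor of recycling endosomes, had a log2 fold change of -0.20 (adjusted p = 0.0319), a call lost in the corrected fit and without shCtrl replicate 1 (-0.14), shUSP9X replicate 1 (-0.21) or shUSP9X replicate 2 (-0.17). Kif13b had a log2 fold change of -0.16 (adjusted p = 0.056) that became 0.42 (adjusted p = 1.1e-05) in the corrected fit.

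The minus-end transport motors are Kifc2 and Kifc3. Kifc2 had 30 and 23 counts in shCtrl and 4 and 1 counts in shUSP9X, and fell by 3.48 (SE 0.61, adjusted p = 1.8e-05), with a corrected value of -3.58. It was the 1 tested kinesin with a count under 10 in a library and passed the filter through shCtrl only, so that its passing and its difference are not independent. Its log2 fold change was -4.58 without shUSP9X replicate 1 and -2.93 without shUSP9X replicate 2. Kifc3, a motor at cell junctions and apical membranes, was at 21.2 and 24.5 CPM in shCtrl and 29.4 and 30.3 CPM in shUSP9X. It rose by 0.39 (SE 0.10, adjusted p = 0.00103; 0.31 when corrected), the largest uncorrected rise among the kinesins.

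**Figure D3:**
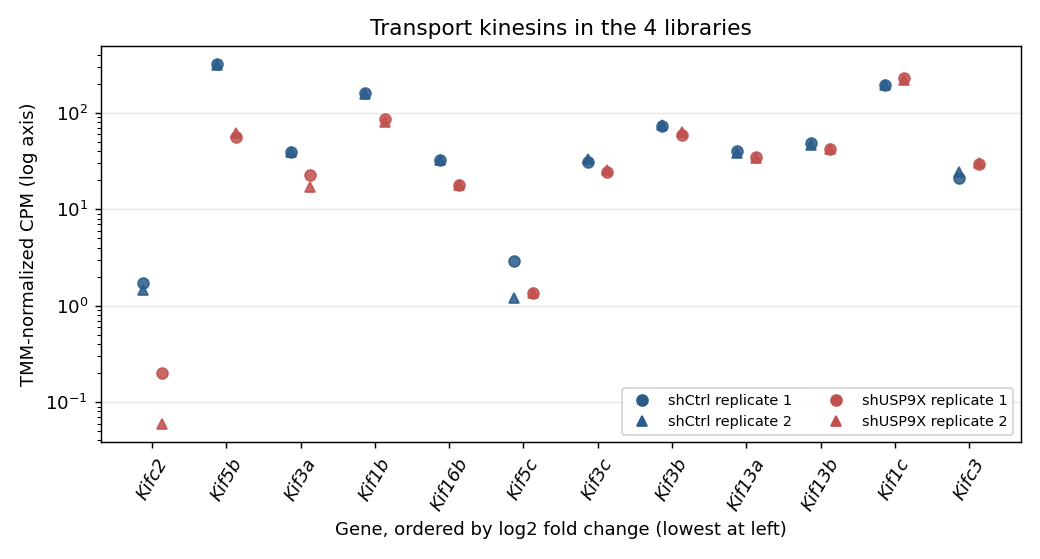
TMM-normalized CPM (log axis) of the 12 tested transport kinesins in each library, ordered by log2 fold change; blue is shCtrl, red is shUSP9X, circles are replicate 1 and triangles replicate 2. Kif5b drops from 323 and 316 to 55.9 and 61.5 CPM, Kifc2 and Kif5c lie under 3 CPM in every library, and Kif1c and Kifc3 at the right lie higher in shUSP9X.

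Kinesins outside both groups numbered 14, of which 7 were tested. Among these 5 fell (71.4%) and 1 rose (14.3%), against 33.6% and 33.8% of all genes tested, with a median of -0.52. In the corrected fit 4 were lower and 2 higher (25.6% and 38.7% of all genes), with a median of -0.50. Kif26b, which lacks the usual ATPase activity and has a role in kidney development and cell adhesion, was at 31.6 and 36.0 CPM in shCtrl and 8.04 and 8.61 CPM in shUSP9X. It fell by 2.02 (SE 0.12, adjusted p = 2.3e-14), with a corrected value of -1.22. Kif21b, which limits microtubule growth, was at 20.3 and 18.2 CPM in shCtrl and 8.40 and 7.95 CPM in shUSP9X and fell by 1.23 (SE 0.13, adjusted p = 3.9e-09), with a corrected value of -0.75. Its relative Kif21a was at 81.4, 84.4, 50.1 and 61.8 CPM and fell by 0.57 (SE 0.07, adjusted p = 1e-07), with a corrected value of -0.21.

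Kif7, the ciliary regulator of Hedgehog signaling, was at 15.8, 14.4, 9.11 and 12.3 CPM and fell by 0.50 (SE 0.14, adjusted p = 0.00295), with a corrected value of -0.50. Of its exonic bases 19.1% overlap 9330171B17Rik on the opposite strand. The Kif7 call was lost without shUSP9X replicate 1 (-0.29), with DESeq2 (adjusted p = 0.0628) and on log2(FPKM + 1) (-0.38, adjusted p = 0.0543). Kif24, which restrains cilium assembly at the mother centriole, rose from 19.9 and 19.6 to 24.2 and 24.3 CPM, by 0.30 (SE 0.10, adjusted p = 0.0114), and by 0.39 when corrected. The Kif24 call was lost with DESeq2 (adjusted p = 0.104) and on log2(FPKM + 1) (0.13, adjusted p = 0.317). Kif6 was not called (log2 fold change -0.45, adjusted p = 0.392, corrected value -0.56). Kif2a, a microtubule depolymerase related to Kif2c, was at 63.1 and 58.6 CPM in shCtrl and 43.6 and 41.1 CPM in shUSP9X, with a log2 fold change of -0.52 (SE 0.07, adjusted p = 2.4e-07). The direction of Kif2a turned to 0.79 (adjusted p = 7.7e-11) in the corrected fit. Of the Kif2a exonic bases 13.2% overlap Dimt1 on the opposite strand, and its counts were in part not whole.

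Levels of different kinesins were compared on the deposited FPKM scale, which accounts for transcript length. In shCtrl the highest mean FPKM values were those of Kif22 (61.8), Kif20a (60.9), Kif5b (53.5), Kif11 (52.3) and Kifc1 (49.6). In shUSP9X, Kif20a (76.1), Kif22 (75.4) and Kifc1 (51.3) were at the top, while Kif5b stood at 10.3 and Kif11 at 15.4. By FPKM rank among the 43, Kif5b went from 3 to 15, Kif20b from 10 to 26 and Kif18a from 17 to 27. Summed over all kinesins, FPKM was 659 and 645 in shCtrl and 505 and 509 in shUSP9X.

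Most of the 8 kinesins with a log2 fold change below -1 had AU-rich transcripts. The GC content of the longest transcript was 38.3% for Kif18a, 39.4% for Kif20b, 41.1% for Kif5b, 42.2% for Kif11 and 42.7% for Kif15, and of 6 tested kinesins with a GC content under 45% those 5 had a log2 fold change below -1. The sixth was Kif2a, at 38.6%, with a log2 fold change of -0.52. Fold changes followed GC content across all genes tested too (Spearman correlation 0.45). How many of all genes with a GC content under 45% lay below -1 was not counted. Whether these kinesins differ from other AU-rich genes was therefore not tested. Of the kinesins with a higher GC content, Kif26b (53.1%) fell by 2.02 and Kif21b (56.7%) by 1.23. Across the 13 mitotic kinesins, log2 fold change and GC content had a Spearman correlation of 0.81, and 0.60 after the correction. It was 0.55 across the 12 transport kinesins (0.49 after the correction) and 0.49 across all 32 (0.20 after it), points that share the same libraries. The median GC content was 48.1% for the mitotic kinesins, 50.4% for the transport kinesins and 50.1% for all genes tested, and the median transcript length was 3398, 6544 and 3193 bases. In the corrected fit the first 5 were lower too, from -1.02 (Kif11) to -2.74 (Kif20b), while Kif2a turned to 0.79.

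**Figure D4:**
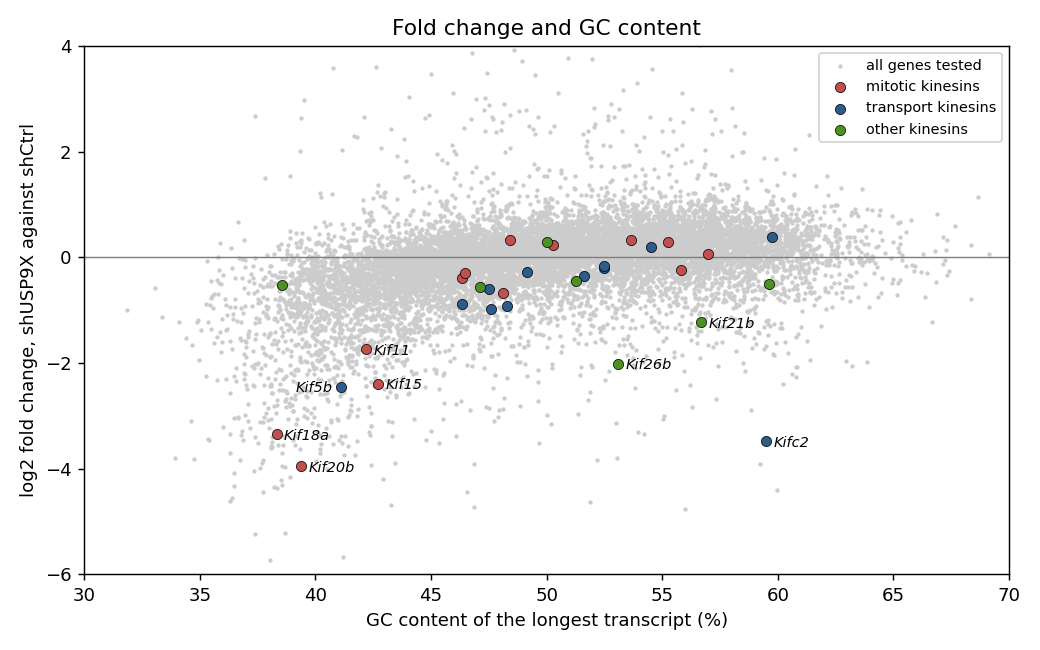
Log2 fold change, shUSP9X against shCtrl, against the GC content of the longest transcript (%), with all genes tested in grey and the 32 tested kinesins coloured by role; names mark kinesins changed by more than 1 on the log2 scale, and 69 of 11430 genes lie outside the plotted range. Kif18a, Kif20b, Kif5b, Kif11 and Kif15 lie at 38.3 to 42.7% GC and low on the vertical axis, and Kif26b, Kif21b and the sparsely counted Kifc2 lie below -1 at 53.1 to 59.5%.

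Genes that work with the mitotic kinesins also changed unevenly. The list held 20 genes, all tested, with a median of -0.13. Of these 10 fell and 8 rose (50% and 40%, against 33.6% and 33.8% of all genes tested). In the corrected fit 9 were lower and 8 higher, against 25.6% and 38.7% of all genes, with a median of -0.03. Cenpe, a kinetochore kinesin whose symbol lies outside the rule used here, was at 180 and 167 CPM in shCtrl and 9.41 and 9.38 CPM in shUSP9X. Both knockdown libraries were far below both controls, and Cenpe fell by 4.20 (SE 0.07, adjusted p = 3.1e-25), with a corrected value of -3.24. Cenpf, a kinetochore protein, was at 215, 194, 6.27 and 9.73 CPM and fell by 4.70 (SE 0.09, adjusted p = 4.1e-24). The spindle assembly genes Hmmr, Ckap5 and Nusap1 fell by 1.73, 1.67 and 1.12 (adjusted p = 1.2e-20, 6.8e-21 and 1.7e-15). Corrected values of Cenpf, Hmmr, Ckap5 and Nusap1 were -3.28, -1.07, -0.95 and -0.51.

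Genes transcribed in G2 and M were measured in the same libraries. Of 15 such genes 3 fell and 6 rose (20% and 40%, against 33.6% and 33.8% of all genes tested), with a median of 0.08. In the corrected fit 4 were lower and 6 higher, against 25.6% and 38.7% of all genes, with a median of 0.05. Mki67, the gene of the proliferation antigen Ki-67, was at 910 and 840 CPM in shCtrl and 39.9 and 40.1 CPM in shUSP9X and fell by 4.45 (SE 0.05, adjusted p = 2.2e-29). Bub1 and Top2a fell by 1.15 and 1.11 (adjusted p = 7e-16 and 1.2e-20). The corrected values of these 3 were -3.35, -0.44 and -0.49. Of 15 G1 and S genes 2 fell and 11 rose (13.3% and 73.3%, against 33.6% and 33.8% of all genes), with a median of 0.43. The corrected fit gave 0 lower and 14 higher, against 25.6% and 38.7% of all genes. Ccne1, the gene of cyclin E1, was at 11.8, 13.2, 28.8 and 24.7 CPM and had the highest log2 fold change of that list (1.11, SE 0.12, adjusted p = 3.4e-09). Mcm5, Cdt1 and Cdc6 rose by 0.76, 0.68 and 0.68, whereas Ccne2 fell by 0.94 (adjusted p = 8.6e-14) but was at 0.57 in the corrected fit.

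**Figure D5:**
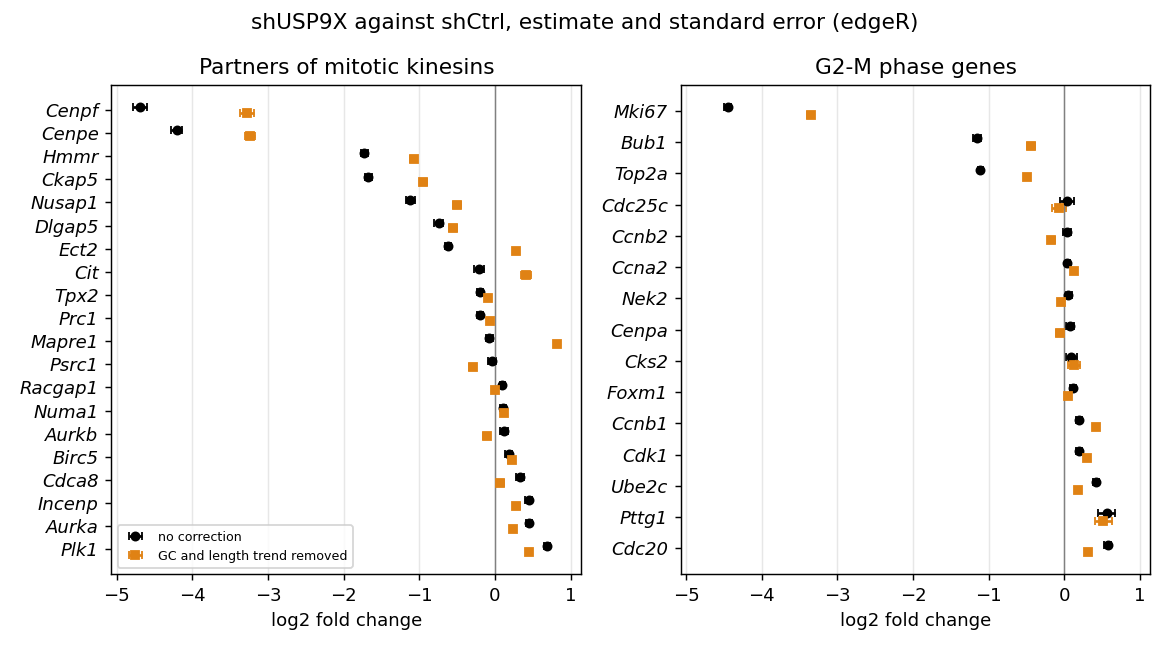
Log2 fold change, shUSP9X against shCtrl, of 20 partners of mitotic kinesins (left) and 15 G2 and M genes (right), with bars of 1 SE; black circles are without correction and orange squares from the corrected fit. Cenpf, Cenpe and Mki67 lie below -4 without correction. Without it 8 of the 20 partners and 6 of the 15 G2 and M genes rose, against 33.8% of all genes tested.

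The 21 tested adaptors of transport kinesins had a median log2 fold change of -0.03, and 7 of them fell while 4 rose (33.3% and 19.0%), the share of falls being that of all genes tested (33.6%). When corrected, 8 were lower and 7 higher, against 25.6% and 38.7% of all genes tested. The 3 adaptors changed by more than 1.5-fold without correction were scaffolds that link cargo to conventional kinesin or carry signaling complexes, and all 3 fell. Spag9 fell by 1.43 (SE 0.05, adjusted p = 2e-19), Mapk8ip3 by 0.83 (adjusted p = 4.3e-10) and Kidins220 by 0.76 (adjusted p = 4.5e-13), with corrected values of -0.66, -0.86 and -0.38. Sybu, a syntaxin-binding adaptor named after its values were seen, had 0.36 (adjusted p = 0.0644) without correction and 1.21 (adjusted p = 5.9e-07) with it. Kifbp, the kinesin-binding protein, had a log2 fold change of 0.08 (adjusted p = 0.421).

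The kinesins' track and the opposing motor were measured in the same libraries, and the difference between these lists and the kinesins was not tested. Of 23 dynein and dynactin genes 5 fell and 11 rose (21.7% and 47.8%, against 33.6% and 33.8% of all genes tested), with a median of 0.12. In the corrected fit 5 were lower and 10 higher, against 25.6% and 38.7% of all genes. Dynlrb1, a dynein light chain gene, had a log2 fold change of 1.09 (adjusted p = 8.6e-14) and of 0.77 when corrected. Dynlt3, another light chain gene, fell by 1.29 (adjusted p = 2.1e-15), with a corrected value of -0.35. Of 12 tested tubulins 2 fell and 8 rose (16.7% and 66.7%, against 33.6% and 33.8%), with a median of 0.59. In the corrected fit 2 were lower and 7 higher, against 25.6% and 38.7%, with a median of 0.37. Tuba1b, an abundant α-tubulin, went from 2117 and 2158 CPM in shCtrl to 3839 and 3781 CPM in shUSP9X, a rise of 0.83 (SE 0.03, adjusted p = 1.6e-19). Tuba4a, Tubb6 and Tuba1c rose by 0.82, 0.77 and 0.70, and Tuba1a fell by 0.62 (adjusted p = 7.9e-13).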

How the data were processed

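Poly(A)-selected RNA from 4 ID8 samples was sequenced. The authors mapped the reads to GRCm38 and deposited estimated counts and FPKM values of every gene, with the libraries kept apart. The submitters' processing notes name fastp 0.18.0, Bowtie2 2.2.8, HISAT2, StringTie 1.3.1 and RSEM. Between 6.40 and 6.69% of count values were not whole, so counts were rounded. The strand setting of the counting is not given in the sources used here. Without it, reads of overlapping genes on opposite strands cannot be told apart.

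Counts were filtered (filterByExpr), TMM-normalized and tested with edgeR 4.0.16 (R 4.3.3), shUSP9X against shCtrl. The common biological coefficient of variation was 0.0352. Alternatives were DESeq2 1.42.0, other scalings and filters, limma 3.58.1 on log2 FPKM, a replicate block, an offset for GC content and length (loess, span 0.3; known for 99.8% of genes tested), the study's cutoff, 2 changes of list membership and each library left out. Procedures were tested on simulated data, and the outcome of those tests is not given here. Counts of replicates differed by more than sampling noise (chi-square per gene 3.41 in shCtrl and 2.23 in shUSP9X). The detection floor was 3 counts and covers counting error only.

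The kinesins and lists were chosen with earlier results of these data known. The text names every kinesin, Usp9x, Cenpe, the light chains, Kifap3 and Kifbp, and up to 5 genes per other list with the largest called change above 1.5-fold. Racgap1, Sybu and the markers were named outside this rule, after their values were seen.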

Additional observations from a re-analysis of the deposited data

How the results depend on the processing

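Each kinesin was refitted under up to 16 alternatives. With the offset for GC content and length the sign of the estimate turned in 5 genes. These were Kif14 (0.68), Kifc1 (-0.16), Kif2a (0.79), Kif13b (0.42) and Kif1b (0.061). With the replicate block added to that offset they stood at 0.69, -0.16, 0.79, 0.42 and 0.058. Of the 5, only Kif14 and Kif2a were called in both fits. Kif1b was not called with the offset, and Kifc1 and Kif13b were not called without it. The offset also changed the split of all genes from 3864 higher and 3843 lower to 4430 higher and 2925 lower. At the study's cutoff 5 mitotic kinesins were lower and 0 higher, and 5 transport kinesins were lower and 0 higher. The median of the transport kinesins was -0.33 on log2(FPKM + 1), with or without the filter, -0.18 with the offset and -0.16 with the offset and the replicate block.

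Replicate numbers are shared between the groups, and nothing in the labels says that they pair the libraries. Deviations of same-numbered libraries had a correlation of -0.05 across genes, which cannot show whether those libraries were prepared together. With the replicate block 7665 genes were called in place of 7707, the medians were -0.30 for mitotic and -0.45 for transport kinesins, and the call of each of the 32 tested kinesins was kept. Leaving out a library, which assumes that a lone library varies like those of the other group, gave 6741 to 7521 called genes, a Usp9x log2 fold change of -3.88 to -3.80, 7 to 8 mitotic kinesins lower and 4 higher (median -0.34 to -0.25), and 7 to 10 transport kinesins lower and 2 higher (median -0.58 to -0.34). The count of 10 arose without shCtrl replicate 2, when Kif5c and Kif13b were called. Kif5c, not called with all libraries, stood at -1.07 without that library and at 0.19 without shCtrl replicate 1. The calls lost under an alternative without a change of sign were those of Kif13a, Kifc5b, Kif7, Kif24 and Kif3c, such as 4 of 32 with DESeq2. With 2 libraries a group, the interval of Kif5c (-1.40 to 0.21) shows how little can be said of kinesins near 1 CPM.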
